A study of Mus musculus with 6 samples.

Results

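The data describe the transcripts of the MMERGLN, VL30 and MuLV-like families of endogenous retroviruses, a group of class I elements (ERV1), during the conversion of mouse ES cells from serum to 2i+vitC. The families are those rows of the transposon tables whose name starts with MMERGLN, MMVL30, MuRRS or MuLV, or is RLTR4 or RLTR6, alone or followed by "_" or a hyphen. This rule found 8 of the 302 transposon families: MMERGLN-int, MMERGLN_LTR, MMVL30-int, RLTR6-int, RLTR6_Mm, RLTR4_MM-int, MuRRS-int and MuRRS4-int. A name that ends in -int marks the internal part of a provirus (6 families), and the remaining 2 families, MMERGLN_LTR and RLTR6_Mm, are named for long terminal repeats (LTRs). The authors counted on an annotation in which they had joined the internal and LTR fragments of a copy into a single element, and the row to which a joined copy belongs was not given in the sources used here. An -int row may therefore hold reads of the LTRs of its proviruses, and an LTR row may hold mainly LTRs that stand alone. The tables hold no row that starts with MuLV. RLTR6B_Mm has a row but falls outside the rule because of the letter after its number.

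RNA-seq was made from J1 ES cells, a wild-type (WT) mouse line grown without feeder cells. D0 cells were in serum with LIF, and D6 and D13 cells had spent 6 and 13 days in 2i+vitC, a serum-free medium with LIF, the GSK3 inhibitor CT-99021, the MEK inhibitor PD0325901 and vitamin C. There were 2 replicates per day and 6 samples in all, and no culture was kept in serum to the later days, so the time in culture and the medium cannot be told apart between D0 and either later day. P-values measure the spread between these replicates of a single cell line.

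An endogenous retrovirus is the remnant of a retroviral infection of the germ line. Its LTRs flank an internal part that codes for gag, pol and sometimes env, and transcription starts in the LTR at the 5′ end and ends in the LTR at the 3′ end, so that most of the RNA is internal sequence. MMERGLN proviruses take their name from the glutamine tRNA that fits their primer binding site. VL30 elements, of which MMVL30-int is the internal part, code for no functional viral proteins but can be packaged into the particles of murine leukemia virus (MuLV), and RLTR6 is the name of their LTRs. RLTR4 names MuLV-related proviruses, and MuRRS a group of murine retrovirus-related sequences. In ES cells such elements are known to be held silent by H3K9me3, placed by SETDB1 with its partner TRIM28, and DNA methylation can add to this. The authors cite that MuLV elements are also reactivated without H3K27me3, the mark of Polycomb. They also cite that ES cells without active DNA methyltransferases kept transposons largely silent, apart from IAP elements.

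The sources used here give a sequence for a single family, VL30, as the target of a hybridization probe with which the study counted VL30 transcripts in another assay. It is shown because it gives the letters of a VL30 transcript and its place in the annotation. Capitals mark the stretch that also occurs, without a mismatch, in annotated transcripts.

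VL30 target: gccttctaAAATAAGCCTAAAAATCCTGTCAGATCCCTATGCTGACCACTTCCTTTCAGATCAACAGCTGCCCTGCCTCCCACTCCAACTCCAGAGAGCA

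The target has 100 bases, 49.0% of them G or C, and no CpG (0). Bases 9 to 100 were found in the sense direction in the lincRNA Gm12840, whose transcript lies at chr4:117700188-117700923 on the plus strand of GRCm38, and in the lincRNA Gm20186, with transcripts at chr6:18845910-18846763 and chr6:18845912-18848207 on the minus strand. The same 92 bases lie antisense in Gm26809, a lincRNA at chr6:18844220-18847360 on the plus strand. A shorter stretch of 38 bases, from base 22 to base 59, lies in the lincRNA AC160336.1 on chromosome 14. Gm20186 and Gm26809 overlap on opposite strands, so the 92 bases lie at annotated loci on chromosomes 4 and 6. Only transcripts were searched, and sites elsewhere in the genome were not counted. The files give reads per family and do not show which copies were transcribed. Whether the target belongs to the internal part or the LTR of VL30 was not given in the sources used here.

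The 6 samples held between 73230745 and 83688345 reads on genes and between 725940 and 1896202 weighted reads on transposon families. A level of 3 reads was between 0.0344 and 0.0420 CPM (read counts scaled by library size). The ES cell markers Pou5f1, Sox2, Nanog, Esrrb and Zfp42 were present in all 6 samples, with a summed level between 2255 and 3427 CPM. The 3 fibroblast genes Col1a1, Col1a2 and Thy1 summed to 29.7 and 10.1 CPM in the D0 replicates and to between 4.86 and 5.62 CPM later, and their part in the differences from D0 was not tested. Of the 3 endoderm markers looked for, only Sox17 had a single row under the name searched, at 0.654 to 1.24 CPM. Gata6 was searched under a cut name, so its absence was not shown. Family levels moved together between replicates: 291 of 302 families were higher in replicate 1 than in replicate 2 at D6, 258 at D0 and 66 at D13, with a median log2 difference of 0.77, 0.42 and -0.78. Most of the 8 ERV1 families followed this shift, with 8, 7 and 2 of them higher in replicate 1.

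All levels below are log2 CPM as deposited, and a difference between days is a log2 fold change. Calls needed a difference over 2-fold and a limma adjusted p under 0.05, from a fit of all 12928 genes and families. CPM are not divided by the length of a family, so levels are compared between days and not between families.

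MMERGLN-int, the internal part of MMERGLN, rose from D0 to D6 and was still high at D13. Its log2 CPM was 4.78 and 4.06 in replicates 1 and 2 at D0, 9.84 and 9.02 at D6, then 7.94 and 8.55 at D13. Both D0 values lay far under all 4 later values, and both D13 values lay under both D6 values. Behind these levels stood 2164 and 1453 weighted reads in the D0 replicates, 72127 and 44220 in those of D6, and 17498 and 28112 in those of D13. Up to D6, MMERGLN-int rose 32.2-fold, by 5.01 on the log2 scale (SE 0.36, limma adjusted p = 4.9e-05), which was the fifth highest of the 302 families. Between D0 and D13 it rose 14.2-fold, by 3.82 on the log2 scale (SE 0.36, limma adjusted p = 0.0001). From D6 to D13 its log2 fold change was -1.19 (95% interval -2.0 to -0.38, limma adjusted p = 0.09), short of the threshold. In bulk RNA, a larger number of expressing cells and more RNA per cell cannot be told apart.

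MMERGLN_LTR, the LTR row of this name, rose as well, from far fewer reads. Its log2 CPM was -1.01 and -2.42 at D0, 3.36 and 1.70 at D6, then 3.07 and 2.01 at D13. The D0 replicates held 39 and 16 weighted reads, the D6 replicates 807 and 275, and the D13 replicates 598 and 303. All later samples were above both D0 samples, and the D6 and D13 values overlapped. It rose 18.9-fold to D6, a log2 fold change of 4.24 (SE 0.68, limma adjusted p = 0.0023). The change from D0 to D13 was 4.25 (SE 0.68, limma adjusted p = 0.0015), or 19.1-fold. The size of both changes depended on single samples and on the scale. With 1 sample left out, the change to D6 lay between 3.41 and 5.07 and that to D13 between 3.55 and 4.96, where each D0 and D6 sample moved the first by over 1.5 times in fold, and on log2(CPM + 1) both were 2.37. Between D6 and D13 the mean differed by 0.01 (95% interval -1.54 to 1.56, limma adjusted p = 0.99), an interval that leaves room for more than a 2-fold change in either direction. MMERGLN-int and MMERGLN_LTR were called up at D6 and at D13 in each of the 18 alternative fits.

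**Figure D1:**
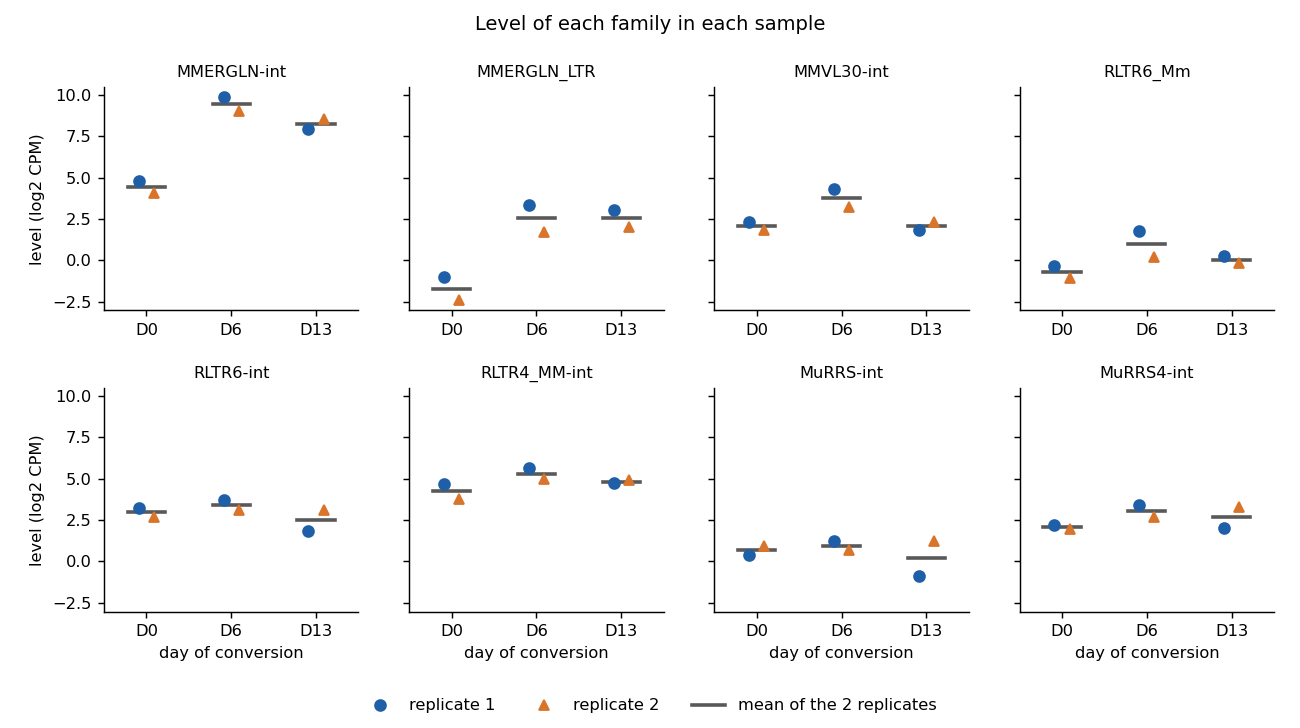
Level of each of the 8 families (y axis, log2 CPM as deposited) at D0, D6 and D13 (x axis), with a point for each replicate and a line for their mean. MMERGLN-int goes from a mean of 4.42 at D0 to 9.43 at D6 and 8.24 at D13, and MMVL30-int from 2.10 to 3.77 and back to 2.05.

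The make-up of the group differed between days. The 8 families took 0.476% and 0.412% of all weighted family reads in the D0 replicates, 4.26% and 3.56% at D6, then 2.88% and 3.68% at D13. Their mean share, with the SD over n = 2 samples, was 0.444% ± 0.045 for D0, 3.91% ± 0.49 for D6 and 3.28% ± 0.56 for D13. MMERGLN-int alone made up 36.2% ± 1.2 of the reads of the 8 families on D0, then 89.3% ± 0.053 on D6 and 84.9% ± 1.8 on D13. Without it, the other 7 families took 0.283% ± 0.023 of the family reads on D0. This share was 0.416% ± 0.051 on D6 and 0.492% ± 0.027 on D13. The total changed too: all families together made up 1.35% of gene and family reads on D0, 2.06% on D6 and 1.08% on D13. A larger share of family reads on D13 is therefore not a higher level. Between D6 and D13, the mean log2 CPM was lower for 7 of the 8 families and higher for 1. With 2 samples a day, an exact permutation test of a share cannot pass a threshold of 0.05, so none was run. The D0 shares of the group lay under all 4 later ones.

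**Figure D2:**
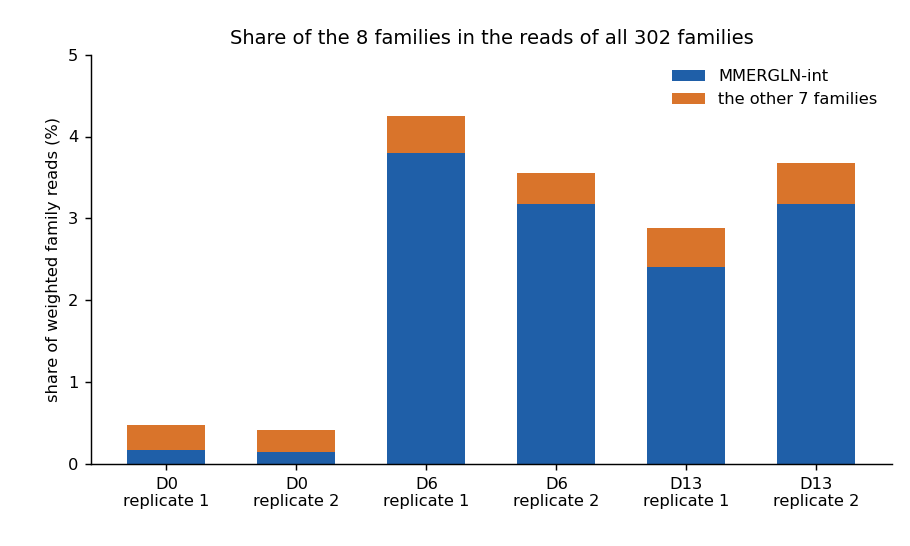
Share of the 8 families in the weighted reads of all 302 families (y axis, percent) in each of the 6 samples (x axis), with MMERGLN-int and the other 7 families stacked. The bars stand at 0.476% and 0.412% at D0 and between 2.88% and 4.26% later, and the part of MMERGLN-int takes most of each later bar.

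MMVL30-int, the internal part of VL30, rose at D6, and its D13 values overlapped those of D0. Its log2 CPM was 2.34 and 1.86 at D0, 4.30 and 3.24 at D6, then 1.80 and 2.29 at D13. Both D6 values were above the other 4 values of this family. The log2 fold change from D0 to D6 was 1.67 (SE 0.42, limma adjusted p = 0.019), a 3.18-fold rise. The mean then differed by -1.72 between D6 and D13 (95% interval -2.67 to -0.78, limma adjusted p = 0.054), which was not called, and by -0.05 between D0 and D13 (95% interval -1.0 to 0.89, limma adjusted p = 0.92). The rise to D6 was not called without D0 replicate 2, where it was 1.43 (limma adjusted p = 0.089), or without D6 replicate 1, where it was 1.14 (limma adjusted p = 0.24).

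RLTR6_Mm, an LTR of VL30, also had its highest mean at D6, at a low level. It stood at a log2 CPM of -0.34 and -1.05 at D0, 1.76 and 0.21 at D6, then 0.25 and -0.16 at D13, from 42 to 266 weighted reads. Both D6 values were above both D0 values, but replicate 2 at D6 was under replicate 1 at D13. Its log2 fold change to D6 was 1.68 (95% interval 0.32 to 3.03, limma adjusted p = 0.075), close to that of MMVL30-int but with a larger error, and it was not called. Without D6 replicate 2 it was 2.46, and without D6 replicate 1 it was 0.90.

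RLTR6-int, an internal row named after the same LTR, passed the threshold in no comparison. Its levels were 3.20 and 2.71 at D0, 3.73 and 3.09 at D6, then 1.85 and 3.12 at D13 on the log2 CPM scale. The days overlapped throughout. The log2 fold change to D6 was 0.46 (95% interval -0.57 to 1.49, limma adjusted p = 0.53), and that from D6 to D13 was -0.92 (95% interval -1.95 to 0.11, limma adjusted p = 0.25). The difference between MMVL30-int and RLTR6-int was not tested, and their intervals for D0 to D6 overlap.

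RLTR4_MM-int, the internal part of MuLV-related proviruses, rose to D6 by little more than the 2-fold minimum. It had a log2 CPM of 4.66 and 3.79 at D0, 5.62 and 5.0 at D6, then 4.74 and 4.89 at D13, from 1208 to 3868 weighted reads. All 4 later values were above both D0 values. Its log2 fold change was 1.08 to D6 (SE 0.34, limma adjusted p = 0.047), -0.49 from D6 to D13 (limma adjusted p = 0.41) and 0.60 from D0 to D13 (limma adjusted p = 0.18). The call at D6 was lost without D0 replicate 2 (0.65, limma adjusted p = 0.2), without D6 replicate 1 (0.77, limma adjusted p = 0.37) and, at an unchanged 1.08, without D13 replicate 1 or 2 (limma adjusted p = 0.07 and 0.069). It was also lost without a mean-variance trend (limma adjusted p = 0.075), with only the 2 days in the fit (limma adjusted p = 0.069) and after centring on the median gene (limma adjusted p = 0.06). In all, 11 of the 18 alternatives ended it. Without D0 replicate 1, the change from D0 to D13 was 1.03.

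The MuRRS internal rows passed the threshold in no comparison. MuRRS4-int had a log2 CPM of 2.18 and 1.95 at D0, 3.43 and 2.67 at D6, then 2.03 and 3.28 at D13. Its D6 values were above its D0 values, with a log2 fold change of 0.98 (95% interval -0.05 to 2.02, limma adjusted p = 0.16). MuRRS-int had 0.40 and 0.94 at D0, 1.22 and 0.67 at D6, then -0.86 and 1.25 at D13. Replicate 1 at D13 held 39 weighted reads of MuRRS-int and replicate 2 held 178, the widest gap between replicates among the 8 families on this day. The log2 fold change of MuRRS-int to D6 was 0.27 (95% interval -1.24 to 1.78, limma adjusted p = 0.81), so neither a 2-fold rise nor a 2-fold fall could be told from no change.

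Of the 8 families, 4 were called up from D0 to D6 and 0 down, against 12.9% of all 302 families called up and 0% called down. The 4 families were MMERGLN-int, MMERGLN_LTR, MMVL30-int and RLTR4_MM-int. The median log2 fold change was 1.38 over the 8 families and 0.18 over all 302. Internal rows rose more in general, and 6 of the 8 families are internal rows. Over all 69 families named with -int the median was 0.44, against 0.12 over the other 233. The share of calls was not taken over -int rows alone. The mean was higher at D6 than at D0 for 8 of 8 families in the deposited values, as for 72.8% of all 302 families. After the median family level of each sample was taken off, it was higher for 7 of 8, and MuRRS-int turned to -0.14. On that scale the median change of all 302 families was -0.24. From D6 to D13, none of the 8 was called in either direction (0 by limma adjusted p), against 3.97% of all families called down and 0% called up. At an unadjusted p under 0.05, 2 of the 8 passed in this step, against 14.9% of all families. The medians were -0.84 over the 8 families, -0.35 over all and -0.50 over the families named with -int. From D0 to D13, 2 of 8 were called up and 0 down, against 9.27% up and 5.63% down of all families, with medians of 0.59 and -0.10. The median over the families named with -int was 0.11 here. In at least 1 comparison, 4 of 8 were called, against 19.2% of all families. The count of 4 fell to 2 without D0 replicate 2 and without D6 replicate 1, and was 5 without D6 replicate 2. In these fits 47, 44 and 57 of all 302 families were called, against 58 with all samples.

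**Figure D3:**
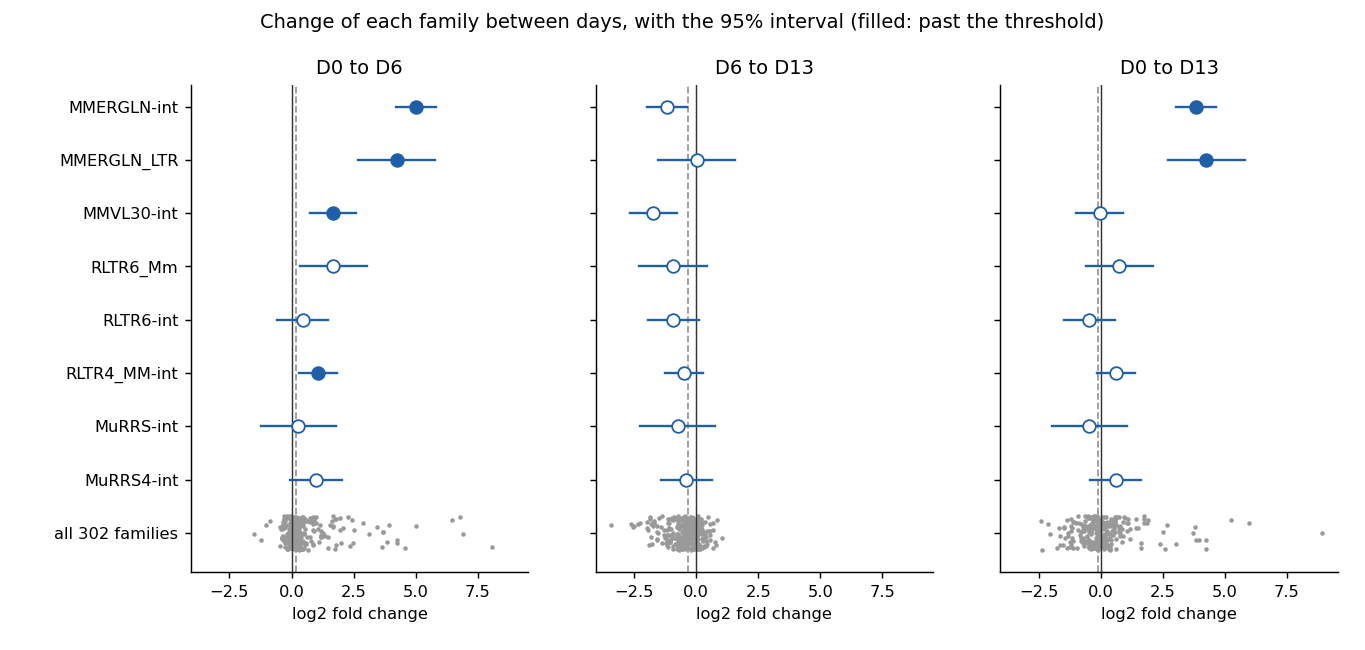
Log2 fold change (x axis) of each of the 8 families and of all 302 families (y axis) in the 3 comparisons, with the 95% interval of the limma fit as a bar and filled points for calls. Grey points are single families, and the dashed line is their median, at 0.18, -0.35 and -0.10. The 2 MMERGLN rows lie apart from the other 6 families at D6 and at D13, and their intervals overlap that of RLTR6_Mm at D6 (MMERGLN_LTR only) and that of no other of the 6 families there or at D13.

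Since most families shifted together between replicates, the levels were also read against the median family of each sample. MMERGLN_LTR and RLTR6_Mm went against the shift at D13, with replicate 1 higher by 1.05 and 0.41. The SD between the replicates of a day became smaller for 20 of the 24 pairs of a family and a day, and its median went from 0.51 to 0.23 on the log2 scale. It became larger at D13 for MMERGLN_LTR (0.74 to 1.34), RLTR6_Mm (0.29 to 0.89) and RLTR4_MM-int (0.11 to 0.49). At D0 it became larger for MuRRS-int (0.38 to 0.69). MMERGLN-int lay 2.69 and 2.41 above the median family at D0, 7.13 and 7.16 at D6, then 6.54 and 6.30 at D13. MMVL30-int lay 0.25 and 0.21 above it at D0, 1.59 and 1.38 at D6, then 0.40 and 0.04 at D13. On each day, the replicates of these 2 families lay closer together than in the deposited values. The largest SD was 0.25, for MMVL30-int at D13. RLTR4_MM-int had 2.57 and 2.14 at D0, 2.90 and 3.14 at D6, then 3.35 and 2.65 at D13. Reading levels this way took the rise of the median family level, 0.42, off the change of each family to D6. The median change of all 302 families was smaller, 0.18, and became -0.24 on this scale. The changes left were 4.59 for MMERGLN-int, 1.25 for MMVL30-int and 0.67 for RLTR4_MM-int.

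**Figure D4:**
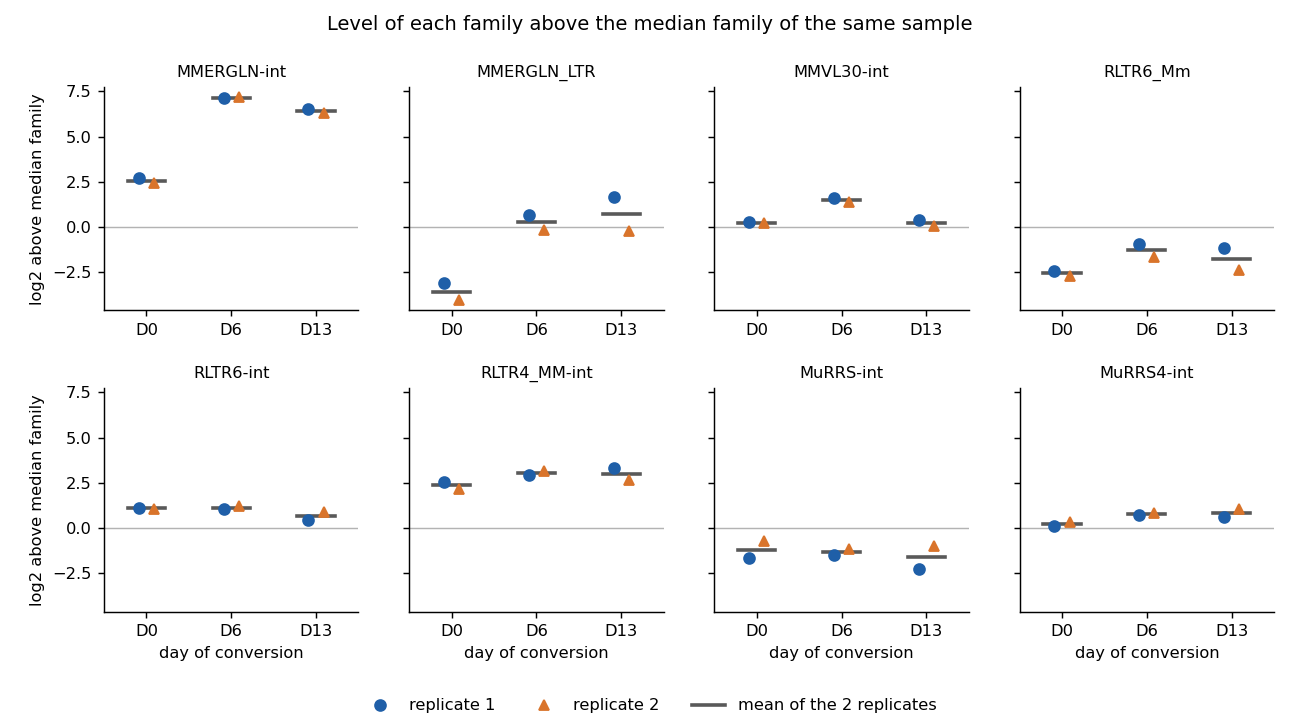
Level of each of the 8 families above the median family of the same sample (y axis, log2) at D0, D6 and D13 (x axis), with a point for each replicate and a line for their mean. The replicates of MMERGLN-int and MMVL30-int lie closer together on each day than in the deposited values. The means are 2.55, 7.14 and 6.42 for MMERGLN-int and 0.23, 1.48 and 0.22 for MMVL30-int.

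In a fit of the 302 families on this scale, chosen after the data were seen, 3 of the 8 families were called up at D6, against 9.27% of all: MMERGLN-int with 4.59 (limma adjusted p = 0.0001), MMERGLN_LTR with 3.82 (limma adjusted p = 0.0033) and MMVL30-int with 1.25 (limma adjusted p = 0.011). From D6 to D13, MMVL30-int fell by 1.26 (limma adjusted p = 0.049), as 1.32% of all families did. RLTR4_MM-int was not called in this fit (limma adjusted p = 0.35). In the fit that kept the genes and applied the same centring, MMVL30-int was not called at D6 either, with the same 1.25 (limma adjusted p = 0.42).

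Internal and LTR rows that belong together by name were compared by their log2 ratio in each sample, which removes the scale of the sample. Given the joined annotation, this is a ratio of rows and need not be one of parts of the same copies. Among all families, 29 such pairs had both rows, 4 of them with one of the 8 families. For MuRRS, MuRRS4 and RLTR4_MM, no LTR row was found. The ratio of MMERGLN-int to MMERGLN_LTR was 5.79 and 6.47 at D0, 6.48 and 7.32 at D6, then 4.87 and 6.54 at D13. These values overlapped between days, and replicate 2 was the higher one on each day. The ratio changed by 0.77 to D6 (95% interval -0.42 to 1.96, limma adjusted p = 0.41), by -1.20 from D6 to D13 (95% interval -2.39 to -0.02, limma adjusted p = 0.27) and by -0.43 from D0 to D13 (95% interval -1.62 to 0.75, limma adjusted p = 0.68). Without D13 replicate 2, the 2 changes to D13 were -2.03 from D6 and -1.26 from D0. Only their size is given, as the lone D13 sample has no spread. Both rows of MMERGLN thus rose, and a different size of their rise was not shown.

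For VL30, the ratio of MMVL30-int to RLTR6_Mm was 2.68 and 2.91 at D0, 2.54 and 3.04 at D6, then 1.55 and 2.45 at D13. It differed by -0.01 between D0 and D6 (95% interval -0.94 to 0.92, limma adjusted p = 0.99). Against RLTR6B_Mm, the other LTR of this name, the ratio changed by 0.80 to D6 (95% interval -0.08 to 1.68, limma adjusted p = 0.23) and by -0.94 from D6 to D13 (95% interval -1.82 to -0.06, limma adjusted p = 0.27). Without D13 replicate 2, the ratio of MMVL30-int fell by 1.24 from D6 to D13 against RLTR6_Mm and by 1.29 against RLTR6B_Mm. Against RLTR6_Mm it fell by 1.25 from D0 to D13. Only the size is given, as the lone D13 sample has no spread.

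The ratio of RLTR6-int to RLTR6_Mm was lower at both later days without passing the test. It was 3.54 and 3.76 at D0, 1.98 and 2.89 at D6, then 1.60 and 3.29 at D13, and all later values lay under both D0 values. Its change was -1.22 to D6 (95% interval -2.39 to -0.06, limma adjusted p = 0.17) and -1.21 from D0 to D13 (95% interval -2.38 to -0.04, limma adjusted p = 0.13), and neither was called. The change to D6 was -1.68 without D6 replicate 2 and an unchanged -1.22 without D13 replicate 1 or 2. The change from D0 to D13 was -2.05 without D13 replicate 2. Only sizes are given for these fits, as the lone sample of a day has no spread. Across the 29 pairs, 20.7% passed for the step to D6, 0% for that from D6 to D13 and 20.7% for D0 against D13, and none of the 4 pairs of this group was among them. At an unadjusted p under 0.05, 7 of the 29 pairs passed between D0 and D6, 4 from D6 to D13 and 10 from D0 to D13, of which 1, 2 and 1 were pairs of this group.

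**Figure D5:**
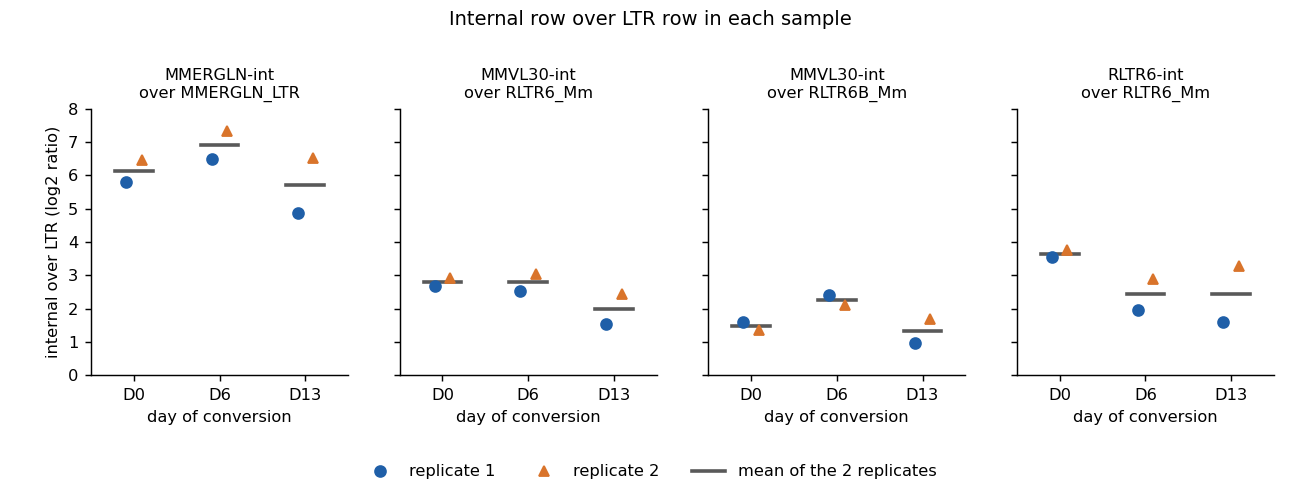
Log2 ratio of an internal row to an LTR row (y axis) at D0, D6 and D13 (x axis) for the 4 pairs that hold MMERGLN, VL30 or RLTR6 rows, with a point for each replicate and a line for their mean. The ratio of RLTR6-int to RLTR6_Mm goes from a mean of 3.65 at D0 to 2.43 at D6, while that of MMVL30-int to RLTR6_Mm is 2.80 and 2.79.

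The courses of the 8 families were also compared with each other and with all other rows, by the root mean square (RMS) difference between the 6 log2 values after each row was centred on its own mean. This is a description over 6 samples that share their libraries. As rows were picked by their course, their changes below follow from the choice and are given without a test. The closest pair within the group was MuRRS4-int and RLTR4_MM-int, with an RMS difference of 0.37. MMERGLN-int and MMERGLN_LTR differed by 0.76 and were each at least 1.51 away from the other 6 families.

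Among 268 other families with a mean of at least 0 log2 CPM, the courses most like that of MMERGLN-int were those of RLTR1B-int (RMS difference 0.58), IAP-d-int (0.64) and MURVY-int (0.70). All 3 are internal rows by their names. Their log2 fold changes to D6 were 3.93, 3.84 and 3.65, against 5.01 for MMERGLN-int. RLTR1B and MURVY-LTR, the LTR rows of the first and the last of these families, had 1.56 and 1.66. The log2 ratio of internal to LTR row thus differed by 2.36 and 1.99 between D0 and D6 in these pairs, against 0.77 for MMERGLN, and the difference between the pairs was not tested. Among 11905 genes, the most like MMERGLN-int were Rasgef1a (0.45), Csf3r, the receptor of the cytokine G-CSF (0.48), and Efhb (0.52). Their log2 fold changes to D6 were 4.15, 4.93 and 4.10.

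The families most like MMVL30-int were BGLII (0.28), RLTR13E (0.34) and ETnERV2-int (0.35). Between D0 and D6 these differed by 1.94, 0.92 and 1.28 on the log2 scale, against 1.67 for MMVL30-int. The genes most like it were Mblac2 (0.29), Cemip, which takes part in hyaluronan breakdown (0.34), and Folh1, a folate hydrolase (0.34). For these genes the differences were 1.71, 1.17 and 1.08.

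A list of 45 host genes that act on such retroviruses or on their silencing (genes of H3K9 methylation, Polycomb, histone deacetylation and other chromatin factors, of DNA methylation and its removal, restriction factors and the receptors of gammaretroviruses) was read in the same fit, and 44 of them had a row. At the 4-fold minimum used for genes, 4 of the 44 were called in at least 1 comparison, against 15.4% of all 12626 genes. At a 2-fold minimum, 11 of the 44 were called, against 36.7% of all genes. The 3 genes called down were those of de novo DNA methylation. Dnmt3a fell by 2.41 to D6 (limma adjusted p = 0.00026), Dnmt3b by 3.37 (limma adjusted p = 0.00016) and Dnmt3l, a cofactor without catalytic activity, by 4.87 (limma adjusted p = 8.3e-05), and all 3 were down at D13 too. Slc7a1, the cationic amino acid transporter that ecotropic MuLV uses as its receptor, had a log2 CPM of 4.96 and 6.43 at D0, 7.65 and 7.91 at D6, then 7.12 and 8.06 at D13. It rose by 2.08 to D6 (limma adjusted p = 0.012), while its change of 1.90 to D13 was under the minimum.

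Trim28 changed by -0.23 to D6 (limma adjusted p = 0.62) and -0.30 from D6 to D13 (limma adjusted p = 0.55), and Setdb1 by 0.46 (limma adjusted p = 0.18) and -0.57 (limma adjusted p = 0.16). Past a 2-fold but not a 4-fold change, 7 further genes of the list moved. The H3K9 methyltransferase Suv39h1 fell by 1.32 to D6 (limma adjusted p = 0.0058), and from D0 to D13 its log2 fold change was -0.23 (limma adjusted p = 0.49). From D0 to D13, the H3K9 methyltransferase Ehmt1 fell by 1.16 (limma adjusted p = 0.004), the chromatin remodeller Smarcad1 by 1.25 (limma adjusted p = 0.0042) and the 5-methylcytosine dioxygenases Tet1 and Tet2 by 1.41 and 1.09 (limma adjusted p = 0.012 and 0.039). Uhrf1, which brings DNMT1 to replicated DNA, rose by 1.11 to D6 (limma adjusted p = 0.006) and by 1.65 to D13 (limma adjusted p = 0.00054). Zfp809, a zinc finger protein that recruits TRIM28 to the primer binding site of MuLV and VL30 proviruses, had log2 fold changes of 0.72 to D6 (limma adjusted p = 0.16) and -1.58 from D6 to D13 (limma adjusted p = 0.037). The part of these genes in the changes of the 8 families was not tested.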

How the data were processed

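RNA was poly(A)-selected with a stranded kit. For genes, the authors mapped reads to mm10 with TopHat2 2.0.6 and counted them with HTSeq 0.6.1. For families, they mapped reads with Bowtie 1.0.0 without mismatches, left out reads in RefSeq exons, weighted each read by its number of sites and summed per family the reads that lay mostly within an element of a RepeatMasker annotation, in which they had joined the fragments of a copy, LTR and internal ones included. Whether family counts used strand was not given in the sources used here. The deposited values are log2 CPM, made by the authors with TMM (edgeR) and voom.

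These values were tested with limma 3.58.1 (R 4.3.3), with a mean per day, a mean-variance trend and Benjamini-Hochberg adjustment over 12928 rows. Ratios of internal to LTR rows were tested over 29 pairs without a trend. Gene values equalled whole reads plus 0.5 within 0.02 reads, which gave the depth. The genes with the most reads were left out of this check. A level rests on these reads, and an SD on 2 values. Of 12928 simulated rows from D0 to D6, 200 were changed by 3 on the log2 scale, 100% of these were called, and 13 unchanged rows were called. Only MMERGLN-int and MMERGLN_LTR changed by more than this. Smaller changes, such as those of the other families, were not simulated, so how many of them would be missed is not known.

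All 8 families are named, with the 3 families and 3 genes closest to MMERGLN-int and to MMVL30-int and host genes that were called. Trim28, Setdb1 and the genes past 2-fold only were named after their values were seen. Rows with cut or shared names, 9 of them families, were tested but not named. The families and lists were chosen with earlier results of these data known. Alternatives were other limma settings, scalings, thresholds and filters, the replicate block and each sample left out. Transcripts were searched in GENCODE vM21 (GRCm38) for exact matches of at least 30 bases. Python 3.11.15 served for tables, with pandas 2.3.3 and numpy 2.4.6, and matplotlib 3.10.9 for figures.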

Additional observations from a re-analysis of the deposited data

How the results depend on the processing

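MMERGLN-int and MMERGLN_LTR kept their direction and their calls from D0 to D6 and from D0 to D13 in all 18 alternatives. Of the changes of the other 6 families, those of MMVL30-int and RLTR4_MM-int to D6 were the calls that an alternative could end, in 5 and 11 of 18 cases. The number of families called, 4 at D6 and in any comparison, was 2 after centring on the median family, at an adjusted p under 0.01 and at a 4-fold minimum. Leaving out 1 sample at a time gave 2 to 5, with the lone sample of that day assumed to vary like the others. The labels do not say what a replicate number marks. Samples of the same number shared their deviations over families with r = 0.54 (D0 and D6), 0.10 (D6 and D13) and 0.22 (D0 and D13), and over all rows with -0.06, 0.24 and 0.12, so a block is given only here. With the replicate block, 5 of the 8 families were called, RLTR6_Mm at D6 in addition (limma adjusted p = 0.029), and 2 fell from D6 to D13, MMERGLN-int (limma adjusted p = 0.036) and MMVL30-int (limma adjusted p = 0.021). Of all 302 families, 67 were called with it, against 58 without, and 24 against 12 fell from D6 to D13. The ratio of RLTR6-int to RLTR6_Mm then passed from D0 to D13, at -1.21. The number down from D6 to D13 was 1, MMVL30-int, on log2(CPM + 1) and in the centred fit of families alone. The host genes called went from 4 to 11 at a 2-fold minimum, as all genes went from 15.4% to 36.7%. As a share of genes and families together, the 8 families took 0.00604% at D0, 0.0818% at D6 and 0.0359% at D13.

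Small changes turned their sign. Centring on the median family, with or without the genes, gave -0.14 for MuRRS-int to D6 and 0.070 for MuRRS4-int from D6 to D13. On log2(CPM + 1), MMERGLN_LTR had -0.0065 from D6 to D13, the ratio of MMERGLN-int to MMERGLN_LTR passed at D6 with 2.57 and was 1.39 from D0 to D13, that of MMVL30-int to RLTR6_Mm was 0.56 to D6, and that of RLTR6-int to RLTR6_Mm was -0.21 from D6 to D13. This scale compresses low levels such as those of the LTR rows. With each sample left out, the ranges of log2 fold changes were -0.82 to 0.84 for MMERGLN_LTR from D6 to D13, -0.30 to 0.19 for MMVL30-int and -1.11 to 0.17 for RLTR6-int from D0 to D13. For MuRRS-int they were -0.00037 to 0.55 to D6, -1.80 to 0.30 from D6 to D13 and -1.53 to 0.58 from D0 to D13. For MuRRS4-int they were -1.02 to 0.23 from D6 to D13 and -0.038 to 1.22 from D0 to D13. Ratios to MMERGLN_LTR ranged from -2.03 to -0.37 (D6 to D13) and -1.26 to 0.40 (D0 to D13). Those of MMVL30-int to RLTR6_Mm ranged from -0.26 to 0.24 (D0 to D6), -1.24 to -0.33 (D6 to D13) and -1.25 to -0.34 (D0 to D13), and to RLTR6B_Mm from -1.29 to -0.59 (D6 to D13) and -0.49 to 0.21 (D0 to D13). Those of RLTR6-int to RLTR6_Mm ranged from -1.68 to -0.77 (D0 to D6), -0.83 to 0.86 (D6 to D13) and -2.05 to -0.37 (D0 to D13). The cause was not tested. Depth limits MMERGLN_LTR at D0 (16 and 39 weighted reads) most.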
